A study of Mus musculus with 2 samples.

Results

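The globin genes of the mouse were examined in bone marrow niche cells after transplantation, in mice that did or did not have acute graft-versus-host disease (aGVHD). The genes were chosen by name, as 8 symbols, namely the adult alpha-globin genes Hba-a1 and Hba-a2, the adult beta-globin genes Hbb-bs and Hbb-bt, the embryonic genes Hba-x, Hbb-bh1 and Hbb-y, and Ahsp. Rows for the 7 globin genes were found among the 54532 genes of the table, and Ahsp was not analysed here. Of the 7 genes, 4 reached a level of 1 FPKM in at least 1 library, as did 12942 genes of the whole table. FPKM is a read count scaled to gene length in kilobases and to a library size. That size was not the recovered read total of the library.

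The aGVHD_V group and the BMT group hold 1 library each. No difference between them could be checked against replicates and none was tested. Female CB6F1 recipients, hybrids of BALB/c and C57BL/6 mice that carry CD45.2, were irradiated with 2 doses of 4.0 Gy and received 5000000 marrow cells of B6.SJL donors, which carry CD45.1, 4 hours later. Mice of the aGVHD_V group also received 60000000 spleen cells of female C57BL/6 mice, and the sources used here do not explain the V. In both groups live stromal cells were sorted by depleting cells positive for CD45, for lineage antigens or for CD71, the transferrin receptor of red cell precursors. The age of the mice and the number of mice per library are not given, and the blood cells left after irradiation and transplantation can come from donor or recipient.

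Hemoglobin carries oxygen in red cells and is built from alpha and beta chains in equal number, each holding a heme group. In the mouse the alpha-like genes lie in a cluster on chromosome 11 and the beta-like genes in a cluster on chromosome 7, and each cluster runs from an embryonic gene to the adult genes. The embryonic genes are used mainly by primitive red cells of the yolk sac, and the adult genes by red cells made in fetal liver and marrow. In marrow, globin transcripts mark erythroblasts and reticulocytes, cells that a stromal sort is meant to remove.

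Within each adult pair the coding sequences are almost the same, which limits how far the genes can be told apart. In GENCODE M21 (GRCm38) the coding sequences of Hba-a1 and Hba-a2 differ at 1 of 429 bases, and those of Hbb-bs and Hbb-bt at 1 of 444 bases. The substitutions are C381T from Hba-a1 to Hba-a2 and C417T from Hbb-bs to Hbb-bt, counted from the A of the start codon. The 60 coding bases around each of them are shown because they are where a read inside the coding sequence can separate the pair, with the differing base in capitals.
Hba-a1: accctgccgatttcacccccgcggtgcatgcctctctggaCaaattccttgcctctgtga
Hba-a2: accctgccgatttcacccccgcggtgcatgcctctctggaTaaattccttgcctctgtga
Hbb-bs: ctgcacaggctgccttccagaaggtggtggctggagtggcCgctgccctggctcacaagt
Hbb-bt: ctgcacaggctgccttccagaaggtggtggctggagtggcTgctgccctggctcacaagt
All other differences between the main transcripts of a pair lie outside the coding sequence. Of all windows of 50 bases in the main coding transcript of Hba-a2, 86.9% also occurred in that of Hba-a1, and 67.5% of those of Hba-a1 occurred in Hba-a2. For the beta pair these shares were 65.8% of the windows of Hbb-bs and 58.3% of those of Hbb-bt. No window of 50 bases was shared between Hba-a1 and Hba-x, between Hbb-bs and Hbb-y or between Hbb-bs and Hbb-bh1. The sources used here do not say how the counting assigned reads that match both genes of a pair, so the level of each single gene is uncertain while the sum of a pair is less affected. Hbb-bs and Hbb-bt are the adult beta genes of the C57BL/6 haplotype, whereas BALB/c mice carry the diffuse haplotype, so reads from recipient cells can also come from alleles that differ from this reference, and their part was not tested.

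The alpha pair is also alike upstream of its starts, and the beta pair less so. The 200 bases before the start are shown for 2 adult beta genes, 1 adult alpha gene and 2 embryonic genes, because the adult genes differed together between the libraries and the embryonic genes had no reads. They come from RefSeq (GRCm38.p6) and are written 5′ to 3′ along the gene, with capitals where 1 of 5 motifs matched on either strand. The motifs are CCAAT (the CCAAT box), CACCC (the box that KLF1 binds), TATAA (the TATA box), and 2 forms of the GATA motif, namely AGATAA as well as TGATAA.
Hba-a1: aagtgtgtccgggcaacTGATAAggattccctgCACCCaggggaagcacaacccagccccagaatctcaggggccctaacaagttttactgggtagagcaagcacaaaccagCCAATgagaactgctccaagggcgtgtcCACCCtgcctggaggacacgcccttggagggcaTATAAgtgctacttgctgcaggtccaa
Hbb-bs: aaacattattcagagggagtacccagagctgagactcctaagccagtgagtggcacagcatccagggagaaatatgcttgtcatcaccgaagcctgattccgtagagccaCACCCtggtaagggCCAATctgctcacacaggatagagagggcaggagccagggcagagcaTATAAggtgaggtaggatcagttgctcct
Hbb-bt: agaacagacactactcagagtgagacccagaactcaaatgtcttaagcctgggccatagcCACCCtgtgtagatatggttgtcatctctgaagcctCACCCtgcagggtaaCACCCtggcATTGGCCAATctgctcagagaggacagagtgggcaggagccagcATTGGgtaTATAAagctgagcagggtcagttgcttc
Hba-x: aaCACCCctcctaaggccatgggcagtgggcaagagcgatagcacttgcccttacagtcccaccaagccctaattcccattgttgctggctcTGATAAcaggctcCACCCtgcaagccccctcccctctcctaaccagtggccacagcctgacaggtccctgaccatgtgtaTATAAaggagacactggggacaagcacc
Hbb-y: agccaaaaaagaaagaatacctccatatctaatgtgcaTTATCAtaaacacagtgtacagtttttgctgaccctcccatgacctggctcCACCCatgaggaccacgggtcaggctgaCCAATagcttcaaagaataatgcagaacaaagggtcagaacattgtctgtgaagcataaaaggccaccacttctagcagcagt
These windows lie at chr11:32283472-32283671 on the plus strand (Hba-a1), chr7:103827929-103828128 on the minus strand (Hbb-bs), chr7:103813924-103814123 on the minus strand (Hbb-bt), chr11:32276400-32276599 on the plus strand (Hba-x) and chr7:103853208-103853407 on the minus strand (Hbb-y). The deposited gene models start up to 200 bases further upstream than the RefSeq starts, by 161 bases in Hba-a1 and by 3 bases in Hba-a2. The RefSeq windows reach from 250 bases before to 50 bases after the start. Those of Hba-a1 and Hba-a2 were identical over 297 aligned bases, so only 1 of them is shown. Those of Hbb-bs and Hbb-bt matched at 168 of 299 bases without gaps. All 6 promoters of the table held CACCC, and all but that of Hbb-y held TATAA. All but that of Hba-x held CCAAT. The motif TGATAA was present in Hba-a1, Hba-a2, Hba-x and, on the opposite strand, in Hbb-y, and neither adult beta window held it or AGATAA. Among 32851 RefSeq windows of the same length, 45.5% held CACCC, 29.3% CCAAT, 18.5% TATAA, 6.18% TGATAA and 7.80% AGATAA. In Hbb-bt a CCAAT match on the opposite strand ends directly beside the match on the gene's own strand. These are matches of letters only.

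The 4 adult globin genes had the 4 highest FPKM of the table in the aGVHD_V library, and each was higher there than in the BMT library. All 4 adult genes were at least 2-fold higher on the scale of log2(FPKM + 1), against 8.65% of the 12942 genes with a level of 1 FPKM or above, and 12.2% of the 584 genes that reached 100 FPKM in either library. None of these 4 was at least 2-fold lower, and the 3 embryonic rows without reads could not be called either way, against 19.4% of the 12942 genes and 2.91% of the 584 genes. The summed FPKM of the adult globin genes was 162021 in the aGVHD_V library and 43018 in the BMT library, a ratio of 3.77 with a 95% interval of 3.71 to 3.83. The interval covers counting error only. It takes as 1 count the read number at which detected genes pile up, 44 reads in the aGVHD_V library and 14 reads in the BMT library, and it holds no variation between mice. In bulk libraries, more globin cells and more globin RNA per cell cannot be told apart. Nor can either be told from less RNA of other cells, because FPKM gives levels relative to the rest of a library.

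Hba-a1, the more abundant row of the adult alpha pair, had an FPKM of 67186 in the aGVHD_V library and 17046 in the BMT library. It ranked 1 by FPKM among all genes in the aGVHD_V library and 2 in the BMT library. The FPKM ratio was 3.94 (interval 3.84 to 4.04), on 581646 and 167856 reads. The gene (ENSMUSG00000069919) occupies bases 32283511 to 32284465 of chromosome 11 (GRCm38, plus strand).

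Hba-a2, which encodes the same kind of chain, had an FPKM of 13661 in the aGVHD_V library and 2657 in the BMT library. Its ratio of 5.14 (interval 4.81 to 5.49) was above those of the other adult globin genes, and its interval did not overlap theirs. It rests on 97149 and 21493 reads, and the gene ranked 4 in the aGVHD_V library and 8 in the BMT library. The gene (ENSMUSG00000069917) occupies bases 32296489 to 32297298 of chromosome 11, on the same strand as Hba-a1.

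Hbb-bs, the more abundant row of the adult beta pair, had an FPKM of 61502 in the aGVHD_V library and 18547 in the BMT library. It ranked 2 in the aGVHD_V library and 1 in the BMT library. The ratio of 3.32 (interval 3.23 to 3.40) was the lowest among the adult globin genes, on 503589 and 172743 reads. The gene (ENSMUSG00000052305) occupies bases 103826534 to 103828096 of chromosome 7, on the minus strand.

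Hbb-bt, the other adult beta gene, had an FPKM of 19672 in the aGVHD_V library and 4768 in the BMT library. It ranked 3 in the aGVHD_V library and 5 in the BMT library. The ratio was 4.13 (interval 3.92 to 4.34) on 147445 and 40648 reads, and its interval overlapped that of Hba-a1. The gene (ENSMUSG00000073940) occupies bases 103812524 to 103813996 of chromosome 7, also on the minus strand.

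In the order of levels the libraries differed only at the top. In the aGVHD_V library the order by FPKM was Hba-a1, Hbb-bs, Hbb-bt and Hba-a2, and in the BMT library Hbb-bs, Hba-a1, Hbb-bt and Hba-a2. Hba-a1 and Hbb-bs, the neighbours at the top, stood at a ratio of 1.09 (interval 1.07 to 1.12) in the aGVHD_V library and 0.919 (0.896 to 0.943) in the BMT library. Hba-a2 stood at 0.694 (0.658 to 0.733) of Hbb-bt in the aGVHD_V library and at 0.557 (0.524 to 0.593) in the BMT library.

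**Figure D1:**
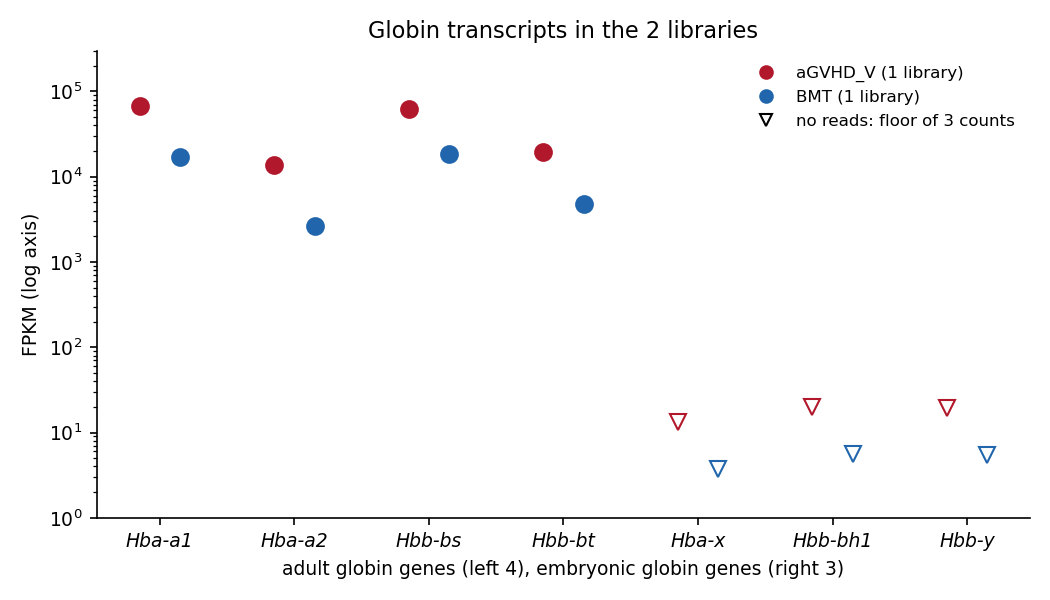
FPKM of the 7 globin genes (log axis) in the aGVHD_V library (red) and the BMT library (blue), 1 library each. Filled circles are measured values, and open triangles stand at the FPKM that 3 counts would give for genes without reads. The adult genes lie between 2657 and 67186 FPKM, each higher in the aGVHD_V library.

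The embryonic globin genes were listed at 0 in both libraries. Hba-x, the alpha-like embryonic gene, had 0 reads in the aGVHD_V library and 0 reads in the BMT library, and so did the beta-like embryonic genes Hbb-bh1 and Hbb-y. A floor of 3 counts is 132 reads in the aGVHD_V library and 42 reads in the BMT library. It allows embryonic transcripts up to 0.00993% of the adult globin reads in the aGVHD_V library and 0.0104% in the BMT library. Per gene the floor is an FPKM of 13.2, 20.2 and 19.6 for Hba-x, Hbb-bh1 and Hbb-y in the aGVHD_V library, and of 3.69, 5.65 and 5.47 in the BMT library. The libraries therefore give no ratio for the embryonic genes, and lower levels were not detectable at this depth.

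Alpha and beta chains are needed in equal number, so the sums of their transcripts were set against each other. Adult alpha transcripts summed to an FPKM of 80847 in the aGVHD_V library and 19703 in the BMT library, a ratio of 4.10 (interval 4.01 to 4.20). Adult beta transcripts summed to 81174 in the aGVHD_V library and 23315 in the BMT library, a ratio of 3.48 (interval 3.40 to 3.56). The intervals of the alpha and the beta sums did not overlap.

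The alpha to beta ratio of FPKM was 0.996 (interval 0.974 to 1.02) in the aGVHD_V library and 0.845 (0.826 to 0.865) in the BMT library. This ratio is taken within a library, so it does not depend on how the libraries were scaled. It was 1.18 times as high in the aGVHD_V library, and also 1.18 times in reads and 1.19 times with the length of the main coding transcript in place of the deposited length. The level itself depends on the unit. In reads it was 1.04 in the aGVHD_V library and 0.887 in the BMT library, so whether alpha or beta was more abundant in the aGVHD_V library changes with the unit, while beta was more abundant in the BMT library in either. With Hba-a1 and Hbb-bs alone, the ratio of FPKM was 1.19 times as high in the aGVHD_V library. Because the genes of a pair share sequence, their sums are the firmer measure.

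Within both pairs the less abundant row had the larger share in the aGVHD_V library. Hba-a2 made up 16.9% of adult alpha FPKM in the aGVHD_V library and 13.5% in the BMT library. Hbb-bt made up 24.2% of adult beta FPKM in the aGVHD_V library and 20.4% in the BMT library. The ratio of Hba-a1 to Hba-a2 was 4.92 (interval 4.70 to 5.15) in the aGVHD_V library and 6.42 (6.08 to 6.77) in the BMT library. The ratio of Hbb-bs to Hbb-bt was 3.13 (3.01 to 3.25) in the aGVHD_V library and 3.89 (3.74 to 4.05) in the BMT library. Of the adult sum, Hba-a1 held 41.5% in the aGVHD_V library and 39.6% in the BMT library, and Hbb-bs held 38.0% and 43.1% in the same order of libraries. These splits rest on how shared reads were assigned. The deposited lengths, 812 bases for Hba-a1 and 667 for Hba-a2, also exceed the main coding transcripts of 699 and 554 bases. For the beta pair they are 768 bases for Hbb-bs, whose main transcript has 628, and 703 for Hbb-bt, whose main transcript has the same length.

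**Figure D2:**
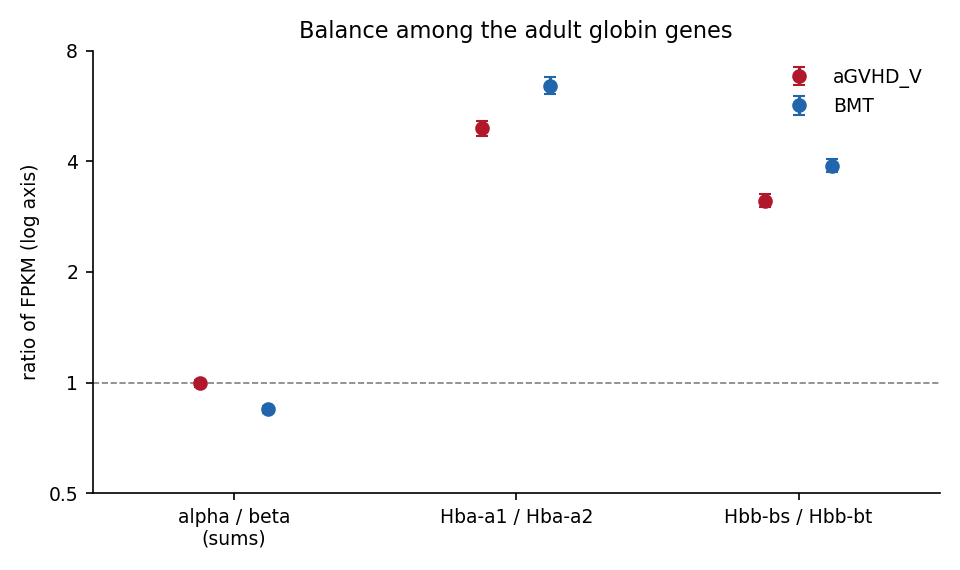
Ratios of FPKM (log axis) between adult alpha and adult beta sums and between the genes of each adult pair, in the aGVHD_V library (red, left of each pair) and the BMT library (blue). Bars are 95% intervals that cover counting error only. Alpha over beta was 0.996 in aGVHD_V and 0.845 in BMT, and both within-pair ratios were lower in aGVHD_V.

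The globin share of each library was large enough to bear on the scale of all other values. Adult globin reads were 1329829 of 11299834 in the aGVHD_V library (11.8%) and 402740 of 10869191 in the BMT library (3.71%). By FPKM, the adult globins made up 31.9% of the sum over all genes in the aGVHD_V library and 12.6% in the BMT library. Without them the FPKM sums were 345937 in the aGVHD_V library and 297152 in the BMT library. When those sums were made equal, the log2 difference of the adult globin sum was 1.69, against 1.91 as deposited.

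The sort and its other cells were checked through marker lists. Cxcl12, the chemokine of marrow stromal cells, had an FPKM of 14.6 in the aGVHD_V library and 346 in the BMT library. The 10 stromal markers summed to 39.7 in the aGVHD_V library and 600 in the BMT library, and Lepr was at 0 in the aGVHD_V library. The 8 endothelial markers summed to 21.3 in the aGVHD_V library, where Cdh5, Kdr, Tek and Cldn5 were at 0, and to 95.05 in the BMT library. Vcam1 stands in the stromal and the macrophage list. The 10 erythroid markers, of which 8 are also in the gene lists described further on and none was at 0 in either library, summed to 4125 in the aGVHD_V library and 2098 in the BMT library. Tfrc, which encodes the CD71 used to deplete red cell precursors, was at 269 in the aGVHD_V library and 160 in the BMT library. Ptprc, which encodes CD45, was at 7.85 in the aGVHD_V library and 9.28 in the BMT library. Of the other lists, 10 neutrophil markers summed to 20738 in the aGVHD_V library and 15329 in the BMT library, and 8 megakaryocyte markers to 274 and 80.6, with Gp1bb at 0 in both and Gp1ba at 0 in aGVHD_V. Macrophage, T and NK cell, and B-lineage markers, 8 of each, summed to 147, 103 and 1.50 in the aGVHD_V library and to 200, 53.7 and 78.3 in the BMT library. Of these, Ncr1 was at 0 in both libraries, and 6 of the B-lineage markers (Cd79b, Pax5, Vpreb1, Vpreb3, Ms4a1 and Rag1) were at 0 in the aGVHD_V library. Some markers at 0 only in aGVHD_V had fewer reads in BMT than the aGVHD_V floor of 132 reads. They are Tek (93 reads), Gp1ba (55), Vpreb1 (109), Vpreb3 (74) and Ms4a1 (22), and their 0 values cannot show a loss. The part of these other cells in the globin difference was not tested.

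The adult globin sum differed more between the libraries than any of the 10 erythroid markers, 9 of which had a higher FPKM in the aGVHD_V library. For each unit of FPKM of the 10 markers together, the adult globin FPKM was 39.3 in the aGVHD_V library and 20.5 in the BMT library, 1.92 times as high and independent of library scaling. Against the single markers the factor ran from 1.42 to 4.92. It was lowest against Alas2, the erythroid enzyme that starts heme synthesis, with 101 FPKM of globin for each FPKM of Alas2 in the aGVHD_V library and 71.2 in the BMT library. It was highest against Epor, the erythropoietin receptor, with 2922 in the aGVHD_V library and 594 in the BMT library. Epor was the marker that went the other way, at an FPKM of 55.5 in the aGVHD_V library and 72.5 in the BMT library, and the interval of its ratio (0.484 to 1.17) included 1. Against Slc4a1, the anion exchanger band 3 of the red cell membrane, the globin level was 146 in the aGVHD_V library and 79.2 in the BMT library. Against Gata1, the transcription factor that sets up the erythroid program, it was 1785 in the aGVHD_V library and 567 in the BMT library, 3.15 times as high. The marker genes named here were chosen after their values were seen.

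Genes of heme synthesis were nearly all higher in the aGVHD_V library but mostly within 2-fold. Of 13 genes measured, 1 was at least 2-fold higher, none was lower and 12 had a positive difference. Over all 12942 genes, 8.65% were at least 2-fold higher and 19.4% at least 2-fold lower, so 1 of 13 is near the share of higher genes. Of the 584 genes that reached 100 FPKM in either library, 12.2% were higher and 2.91% lower. None lower is near that last share. The median log2 difference was 0.74, beside -0.07 for all 12942 genes, and was 0.16 beside -0.62 for the same genes when both libraries were brought to the same FPKM sum. Alas2 was at an FPKM of 1601 in the aGVHD_V library and 604 in the BMT library, a ratio of 2.65 (interval 2.43 to 2.89). Slc25a37, the mitochondrial iron importer mitoferrin, was at 262 in the aGVHD_V library and 137 in the BMT library (ratio 1.91). Alad, the enzyme that acts after Alas2, had a ratio of 1.86.

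Genes of the red cell surface and its skeleton showed a like pattern. All 15 were measured, 3 were at least 2-fold higher and none lower, against 8.65% and 19.4% of all 12942 genes. Among the 584 genes that reached 100 FPKM the shares were 12.2% and 2.91%, and none lower is near the latter. The median was 0.66, or 0.09 under the same FPKM sum, where the median gene was at -0.62. Dmtn (dematin, which bundles actin) was at an FPKM of 40.7 in the aGVHD_V library and 18.5 in the BMT library, a ratio of 2.20 (interval 1.69 to 2.86). Epb41 (protein 4.1) had a ratio of 2.12 and Slc4a1 of 2.04. No gene of the heme or the red cell list reached the ratio of Hbb-bs.

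Genes that act on globin protein or on oxygen binding had a median of 0.52, or -0.06 beside -0.62 for the median gene under the same FPKM sum. Of 9 genes, 2 were at least 2-fold higher and none lower, against 8.65% and 19.4% of all 12942 genes. Among the 584 genes that reached 100 FPKM the shares were 12.2% and 2.91%. Bpgm, which makes the bisphosphoglycerate that lowers the oxygen affinity of hemoglobin, was at an FPKM of 431 in the aGVHD_V library and 160 in the BMT library, a ratio of 2.70 (interval 2.35 to 3.09). Prdx2, an abundant red cell peroxidase, was at 635 in the aGVHD_V library and 310 in the BMT library (ratio 2.05, interval 1.83 to 2.30). Eif2ak1, the kinase that slows globin translation when heme is short, and Ube2o, a ubiquitin ligase that clears proteins from reticulocytes, had ratios of 1.91 and 1.71. Car2, a carbonic anhydrase, was the most abundant of the list at 1112 in the aGVHD_V library and 778 in the BMT library (ratio 1.43).

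Transcription factors that act on the globin genes lay closer to the median gene. Of 12 measured, 1 was at least 2-fold higher, near the 8.65% of all 12942 genes, and none was lower, against 19.4%. Among the 584 genes that reached 100 FPKM, 12.2% were higher and 2.91% lower. The median was 0.27, or -0.30 beside -0.62 for the median gene under the same FPKM sum. Klf1, the factor of the beta-globin CACCC box, was at an FPKM of 236 in the aGVHD_V library and 173 in the BMT library, a ratio of 1.36 (interval 1.05 to 1.75). Gfi1b, an erythroid repressor, was at 114 in the aGVHD_V library and 53.1 in the BMT library (ratio 2.14, interval 1.48 to 3.07). Sox6, which takes part in silencing the embryonic Hbb-y, was at 10.6 in the aGVHD_V library and 5.63 in the BMT library (ratio 1.88, interval 1.24 to 2.83). Nfe2, which binds the beta-globin locus control region, had a ratio of 1.71. Myb, a factor of immature progenitors, went the other way at 6.86 in the aGVHD_V library and 14.2 in the BMT library, 2.07-fold lower by FPKM and within 2-fold on the scale of log2(FPKM + 1).

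Genes that clear free hemoglobin and heme showed no common direction. Of 9 genes, 8 were measured, 1 was at least 2-fold lower and none higher, against 19.4% and 8.65% of all 12942 genes. The median was -0.05. Under the same FPKM sum 4 were at least 2-fold lower and the median was -0.58, beside -0.62 for the median gene. Lrp1, the hemopexin receptor of macrophages and stromal cells, was at an FPKM of 2.72 in the aGVHD_V library and 13.2 in the BMT library, 4.85-fold lower (interval of the ratio 0.104 to 0.371). Hp, haptoglobin, was at 248 in the aGVHD_V library and 337 in the BMT library (ratio 0.736, interval 0.585 to 0.918). Blvrb and Blvra, biliverdin reductases, had ratios of 1.53 and 1.49, and the interval of Blvra (0.746 to 2.84) included 1. Cd163, the hemoglobin-haptoglobin receptor of macrophages, was at 1.22 in the aGVHD_V library, on 71 reads that lie under the floor, and at 3.28 in the BMT library.

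**Figure D3:**
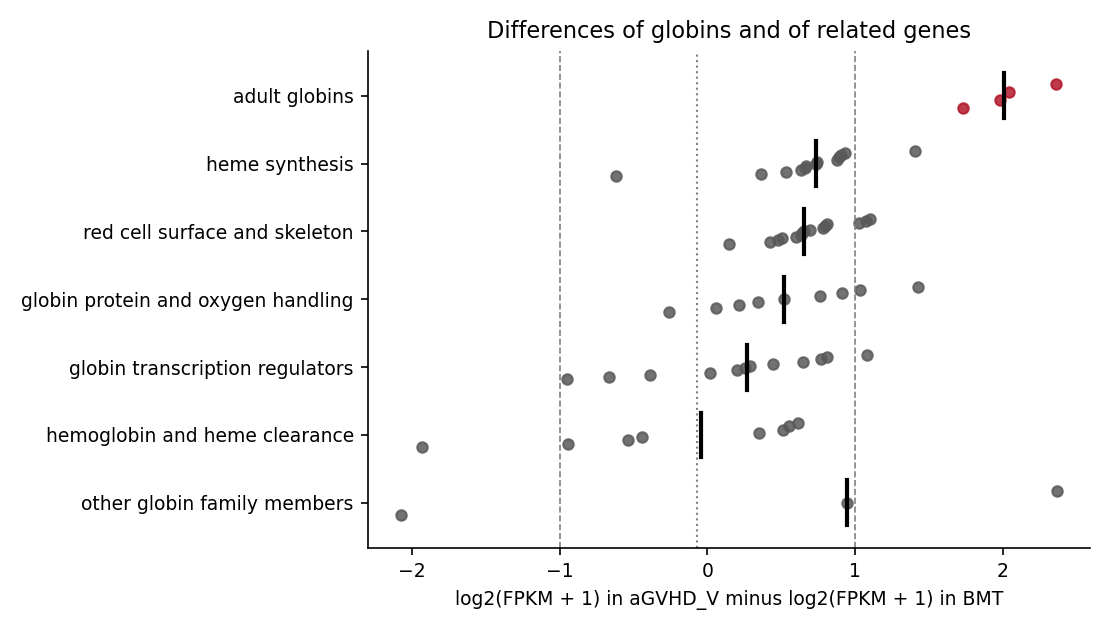
Difference in log2(FPKM + 1), aGVHD_V minus BMT, for the adult globin genes (red, top) and for measured genes of 6 related lists, with list medians as black bars. Dashed lines mark 2-fold and the dotted line the median of all measured genes (-0.07). The 4 adult globins lie to the right of every gene of the heme and red cell lists.

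Other globin genes were far less abundant. Hbq1b, a theta globin between Hba-a1 and Hba-a2, was at an FPKM of 47.9 in the aGVHD_V library and 24.3 in the BMT library, a ratio of 1.97 whose interval (0.740 to 4.86) included 1. Its near-copy Hbq1a was at 8.39 in the aGVHD_V library and 0.819 in the BMT library, on 54 and 6 reads, which is under the floor in both. Cygb, the cytoglobin of fibroblast-like cells, was at 1.69 in the aGVHD_V library, on 42 reads under the floor, and at 10.3 in the BMT library. Of the 8 genes of this list 3 were measured, 1 at least 2-fold higher and 1 lower, against 8.65% and 19.4% of all 12942 genes. The higher gene is Hbq1a and the lower is Cygb, so both calls rest on reads under the floor in at least 1 library. The median of 0.95 is the value of Hbq1b alone. Myoglobin (Mb), neuroglobin (Ngb) and the beta-like genes and pseudogenes Hbb-bh0, Hbb-bh2 and Hbb-bh3 had no reads in either library.

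The high level was limited to the adult globin rows along both clusters. In the alpha cluster Hba-x, the theta genes and the 5 flanking genes examined within 75 kb stayed below an FPKM of 60 in both libraries. Snrnp25, a splicing protein gene about 71 kb upstream of Hba-x, was at 58.7 in the aGVHD_V library and 12.6 in the BMT library, a ratio of 4.66 (interval 2.01 to 11.1). Nprl3, whose introns hold the enhancers of the alpha-globin genes, was at 2.79 in the aGVHD_V library and 3.66 in the BMT library, and the interval of its ratio (0.230 to 2.02) included 1. Rhbdf1, a rhomboid family gene, was without reads in aGVHD_V and at an FPKM of 3.69 in BMT, at least 1.62-fold lower against the floor. Sh3pxd2b was at 0.531 in the aGVHD_V library, on 55 reads under the floor, and at 2.12 in the BMT library. In the beta cluster all rows between Hbb-y and Hbb-bs had no reads in either library. Of 15 genes listed as neighbours of the clusters and of Ahsp, 5 lie within 75 kb of Hba-x. Luc7l lies on chromosome 17, away from both clusters. Trim68, Rrm1 and Stim1 end at or before base 102687327 of chromosome 7, whereas Hbb-bt starts at base 103812524. The values of the list therefore do not describe the flanks of the clusters alone. Of this list 10 were measured, 1 at least 2-fold higher and 3 lower, against 8.65% and 19.4% of all 12942 genes. The median was -0.41, or -0.24 with genes without reads set to the floor, where 1 was lower. Farther from the clusters, Rrm1 had an FPKM of 63.05 in the aGVHD_V library and 57.1 in the BMT library. Itgax was without reads in aGVHD_V and at 1.60 in BMT, on 93 reads, fewer than the aGVHD_V floor of 132 reads.

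**Figure D4:**
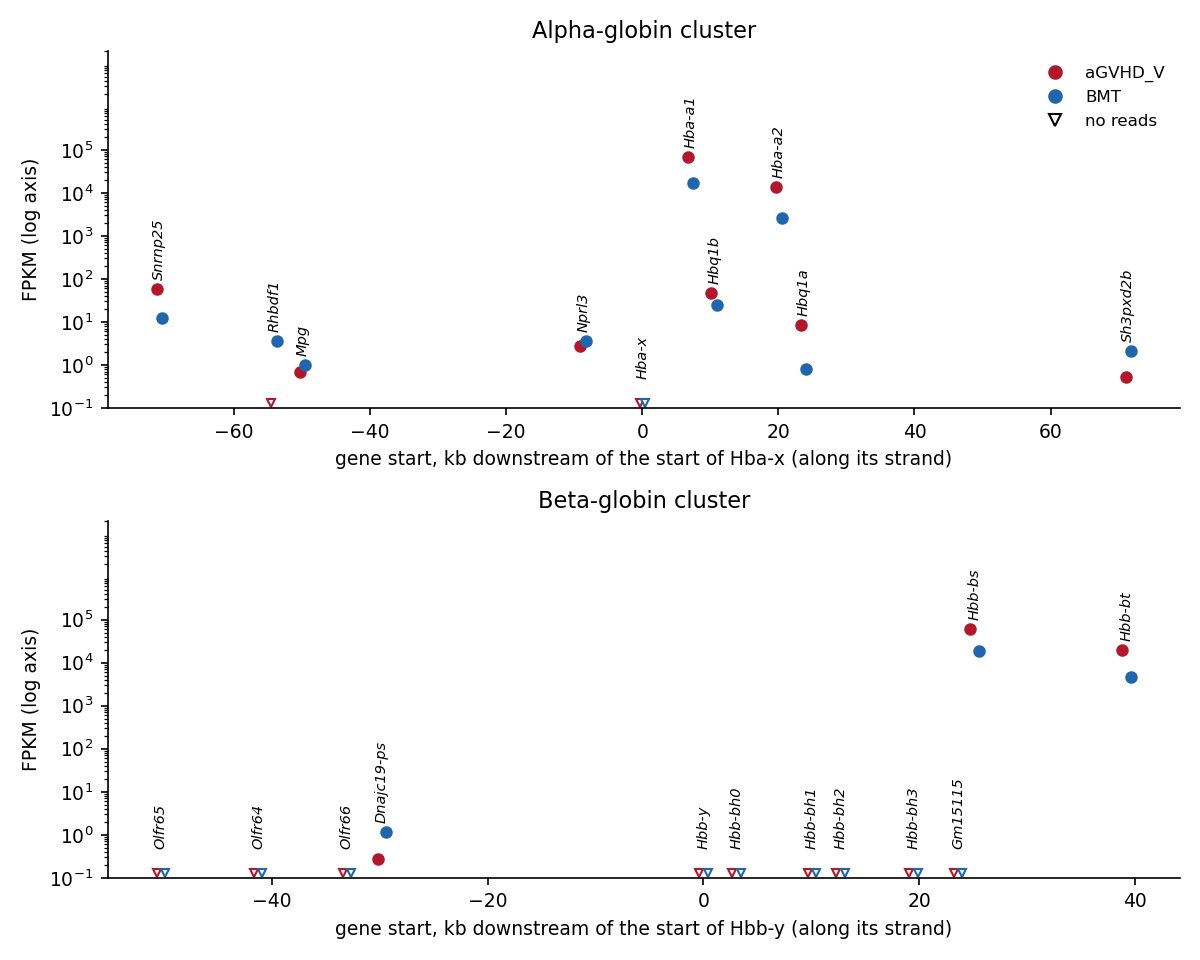
FPKM (log axis) of genes along the alpha-globin cluster (top) and the beta-globin cluster (bottom), placed by the distance of each gene's start from the start of the embryonic gene Hba-x or Hbb-y. Red is aGVHD_V and blue is BMT, and open triangles mark genes without reads. The adult genes stand at an FPKM of 2657 or above, and every other gene shown lies below 60.

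The genes most like the adult globin sum were sought among the 584 genes that reached 100 FPKM in either library, by the distance between log2 differences over the 2 libraries. The 5 nearest were mt-Rnr2 and mt-Rnr1, the mitochondrial ribosomal RNAs, the processed pseudogenes Pdcd5-ps and Gm10241, and the mitochondrial tRNA gene mt-Tn. Their FPKM ratios of 3.795, 3.76, 3.91, 3.59 and 3.56 stood beside 3.77 for the adult globin sum, at distances of at most 0.11 on the log2 scale. mt-Rnr2 was at an FPKM of 741 in the aGVHD_V library and 195 in the BMT library. The intervals were 3.20 to 4.50 for mt-Rnr2 and 3.04 to 4.64 for mt-Rnr1. They were wider for the other 3 genes, and that of mt-Tn (0.305 to 41.3) included 1. Among the genes at this level other than the globins, 20 had a larger difference than Hbb-bs and 13 a larger one than Hba-a2.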

How the data were processed

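RNA sequencing values of sorted marrow stromal cells were deposited as 1 table with 1 column per library. The authors gave each gene's FPKM, a read count scaled to gene length and library size, per the file headers. Per the submitters' processing notes, edgeR 3.18.1 and the builds GRCm38 and mm10 were used. The sources used here name no aligner or read counter and do not say whether strand was used. The 7 globin rows have the same positions in GENCODE M21. Another 1 column of values fits no sample label and was left out.

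The FPKM times gene length were whole multiples of 1 step per library, for 100.0% of values above 0 at a tolerance of 0.05, so reads were recovered. The steps correspond to library sizes of 10661688 (aGVHD_V) and 12127105 (BMT), against recovered totals of 11299834 and 10869191. Reads were found for 12310 and 15477 genes.

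Ratios are FPKM in aGVHD_V over BMT. Their exact conditional binomial (Clopper-Pearson) 95% intervals, also used for ratios within a library, count reads in units of the modal read number (44 and 14, from a moving sum over 7 read numbers that starts at 4 reads). Differences are log2(FPKM + 1), which understates low genes. A gene without reads was given a floor of 3 counts. The procedure was checked on simulated data (Python 3.11.15, scipy 1.17.1). Those data were drawn in units of 44 and 14 reads, so the check cannot show whether these units are right. The members, the 7 gene lists and the 8 marker lists were chosen with earlier results of these data known. The genes named are the members, up to 4 genes of each list with the largest difference and that with the highest mean, all expressed globin relatives, and Ptprc, Tfrc and Cxcl12. Others are said to be chosen after seeing values or are placed by position. Ahsp was not analysed here, and some genes that this rule names are not reported here. Alternatives were pseudocounts, scalings, filters, units and gene lengths.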

Additional observations from a re-analysis of the deposited data

How the results depend on the processing

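All 4 adult globin genes stayed at least 2-fold higher in the aGVHD_V library, and none was lower, under every pseudocount, scaling and filter tried. The size moved with the scaling. With both libraries at the same FPKM sum (median gene shifted by -0.55 in log2), the log2 differences were 1.40 for Hba-a1, 1.78 for Hba-a2, 1.15 for Hbb-bs, 1.47 for Hbb-bt and 1.33 for their sum (1.335). With FPKM sums taken without the globin genes (median gene -0.19) they were 1.76, 2.14, 1.51, 1.82 (1.825) and 1.69 in the same order. With library sizes of all recovered reads (median gene -0.21) they were 1.74, 2.12, 1.49, 1.80 and 1.67. Median centring gave 1.88 for the sum. Pseudocounts of 0.1 and 5 left the log2 differences within the intervals of the values as deposited. Counting each read as 1 narrows the interval only and cannot move the ratio, so it is no check of it.

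The alpha to beta ratio in reads was 1.04 in the aGVHD_V library and 0.887 in the BMT library, and with Hba-a1 and Hbb-bs alone 1.09 and 0.919. Their quotient stayed within its interval of 1.14 to 1.22 under these and under the main transcript lengths, which were chosen after seeing the data. The embryonic share was 0 under each alternative, and no log2 difference of the embryonic sum could be given because both libraries are at 0.

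Under the same FPKM sum the list medians were 0.164 for heme synthesis, 0.0898 for the red cell surface and skeleton and -0.0626 for globin protein and oxygen handling, beside -0.62 for the median gene. Without the globin genes in the sums they were 0.52 (heme) and 0.441 (red cell), and with all recovered reads 0.498 and 0.419. Under the same FPKM sum no gene of these 3 lists or of the regulators was at least 2-fold higher, against 1, 3, 2 and 1 as deposited, while 1 heme gene and 2 regulators were lower, against 0. Over all genes measured, 8.65% were at least 2-fold higher as deposited and 6.09% under the same FPKM sum. The regulator median was then -0.30, and 4 clearance genes were lower, against 1, with a median of -0.58. No gene of the red cell list was 2-fold higher under the other 2 scalings. The lists of clearance genes and of locus neighbours had medians of 0.35 and 0.14 with an FPKM minimum of 5, which leaves 7 and 5 genes. Genes without reads at their floor, an alternative chosen after seeing the data, moved only the neighbour list, of which 1 gene was then at least 2-fold lower, against 3 as deposited, 0 with a pseudocount of 5 or the FPKM minimum of 5, and 6 of 12 measured under the same FPKM sum. The other list medians stayed within their spread over members. The floor limits what can be said of the embryonic globins and the theta globins, which lie at or near it. No paired analysis was possible because each group holds 1 library.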
